A study of Mus musculus with 18 samples.

Results

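The 9 genes described here belong to the thyroid hormone system of mouse oligodendrocyte progenitor cells (OPCs), the dividing precursors of the myelin-forming oligodendrocytes. They are the nuclear receptors Thra and Thrb, the partner receptor Rxrg, the corepressor Ncor1, the hormone-responsive genes Klf9 and Hr, the deiodinases Dio2 and Dio3 and the transporter Slc16a10. They were taken by gene symbol from an RNA sequencing table of 38046 symbols, and all 9 were listed in it. A mean of at least 1 rescaled TPM over the libraries was needed for a test, and 4 of the 9 reached it (Thra, Klf9, Hr and Ncor1), as did 12473 symbols in all. TPM is an abundance corrected for transcript length and scaled to a sum of 1000000 per library, so levels of different genes can be set side by side. Rescaled TPM is that value divided by a factor for each library, as described further on.

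The study compared clonal OPC lines grown from primary mouse neural stem cells, namely D7, D3 and E8 as controls and 3F, D6 and 7F as Thap1 nulls. THAP1 is a transcription factor of the zinc-finger class, and the comparison asks how its loss bears on oligodendrocyte development. Each clone gave 1 library as OPCs in growth medium with PDGF-AA (day 0), 1 after 2 days (DIV2) and 1 after 4 days (DIV4) in differentiation medium with the thyroid hormone T3, labelled at 40 µg/ml (a concentration not checked against another source), which makes 18 libraries in 6 groups of 3. Both genotypes went through the same media, no group stayed in differentiation medium without hormone, and T3, the loss of PDGF-AA, the change of medium and time cannot be told apart. How the null clones were made and whether clones of 1 genotype came from separate animals are not given in the sources used here, so p-values measure the spread between clones.

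Thyroid hormone enters cells through membrane transporters and is activated or inactivated by deiodinases, of which Dio2 makes T3 from its precursor and Dio3 breaks T3 down. Inside the nucleus T3 binds the receptors encoded by Thra and Thrb, which sit on DNA as pairs with retinoid X receptors such as Rxrg. Without hormone these receptors hold corepressors such as NCOR1 and keep their target genes low, and binding of T3 exchanges the corepressors for coactivators. In the oligodendrocyte lineage T3 is known to promote exit from the cell cycle and myelin gene expression, and Klf9 and Hr are well-known direct targets of the hormone in brain.

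Promoter sequences are shown for Klf9, the member with the largest ratio of DIV means to OPC means among those tested, and for Rxrg, the member that was called between the genotypes at DIV4 in a fit without a filter. Each run holds the 250 bases before a RefSeq transcription start on GRCm38.p6, 5′ to 3′ on the plus strand, on which both genes lie. Capitals mark AGGTCA, the motif to which a single thyroid hormone or retinoid X receptor binds, searched on both strands. The Klf9 window is chr19:23140976-23141225, and the Rxrg windows are chr1:167598112-167598361 for the upstream start and chr1:167618015-167618264 for the downstream start.
Klf9: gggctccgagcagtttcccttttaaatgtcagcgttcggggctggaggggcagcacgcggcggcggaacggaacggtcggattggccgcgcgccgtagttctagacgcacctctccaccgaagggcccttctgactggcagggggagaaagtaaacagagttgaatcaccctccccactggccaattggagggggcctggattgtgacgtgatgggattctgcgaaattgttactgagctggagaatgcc
Rxrg upstream start: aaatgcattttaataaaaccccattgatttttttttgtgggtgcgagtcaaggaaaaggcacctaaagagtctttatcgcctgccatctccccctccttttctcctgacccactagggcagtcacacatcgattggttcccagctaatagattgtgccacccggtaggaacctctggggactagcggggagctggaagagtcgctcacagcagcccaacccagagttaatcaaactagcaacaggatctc
Rxrg downstream start: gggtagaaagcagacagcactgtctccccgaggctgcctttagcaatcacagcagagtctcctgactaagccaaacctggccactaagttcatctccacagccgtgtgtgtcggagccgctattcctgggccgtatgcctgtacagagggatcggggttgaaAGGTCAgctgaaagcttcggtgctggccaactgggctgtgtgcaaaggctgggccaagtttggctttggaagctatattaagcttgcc

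The motif occurred once in the downstream Rxrg window, on the plus strand, with its first base 88 bases before the start. Neither the Klf9 window nor the upstream Rxrg window held these letters, which says nothing about sites elsewhere or with other letters. Of the 9 members, 7 had an entry in the promoter table, and among these the first Thrb window also held 1 copy, 184 bases before its start. Over all 32851 promoter windows of this length 14% held the motif on either strand, and 5 windows (0.0152%) held it as a pair in the same direction with 4 bases between, the arrangement known for thyroid hormone receptor pairs.

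The libraries differed in make-up before any gene was compared. Protein-coding transcripts took 5.05% to 9% of the deposited TPM in control OPCs and 19.1% to 38.8% in the other 15 libraries, so deposited TPM of nearly every gene is low in control OPCs. Values were therefore divided by median-of-ratios factors, which assume that most genes do not change and which ran from 0.1249 to 0.3158 in control OPCs, from 0.7198 to 1.355 in null OPCs and from 0.952 to 2.004 at DIV2 and DIV4. Read depth is unknown, since TPM keeps no read numbers. The coding transcripts of Thap1 stood at 4.06 ± 0.591 rescaled TPM in control OPCs and 0.619 ± 0.149 in null OPCs (SD, n = 3 each), and control and null clones did not overlap at any stage. The OPC markers Cspg4, Pcdh15 and Pdgfra were lower in control DIV4 than in control OPCs by limma (log2 changes of -2.20, -2.14 and -1.87, and -1.78, -1.59 and -0.98 without the library D7, where Pdgfra no longer passed). Summed over 10 oligodendrocyte markers, rescaled TPM was 51.7 to 509 in control OPCs and 212 to 314 in null OPCs, 2813 to 5357 and 2284 to 2887 at DIV2, and 1971 to 11422 and 1100 to 2048 at DIV4. Control D7 at DIV4 stood apart from the other 2 control clones. Its oligodendrocyte sum was 11422 against 2056 in D3 and 1971 in E8, and its sum over 10 astrocyte markers was 4.86 against 180 and 371, with 103 to 160 in the null clones at DIV4. Astrocyte sums at the earlier stages were 12.2 to 41.1 and 12.2 to 17.6 in control and null OPCs, and 3.14 to 57.5 and 12.3 to 15.4 at DIV2. The 8 microglia markers summed to 0.299 to 4.65 and the 9 endothelial and mesenchymal markers to 0.831 to 5.41 over all libraries, and Cldn5, C1qa and C1qb were listed at 0 in every library. The 10 neuron markers summed to 68.1 to 159 over all libraries. Of these, 2 reached the filter, Tubb3 and Map2, with means of 40.2 and 56.5 over the 18 libraries. Tubb3 was called higher and Map2 lower at DIV4 against OPC in both genotypes. For most results that rest on control DIV4, values without the D7 library are given below where the library changes them.

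Klf9 and Hr rose steeply with differentiation in both genotypes, Thra rose by a smaller amount, and Ncor1 did not pass the test in any comparison. Against OPC, 3 of the 4 tested members were called higher in control DIV2, where 17.7% of all tested genes were called higher and 17.3% lower. The same count of 3 was found in control DIV4 (16.1% higher and 16.1% lower over all genes) and in null DIV2 (14.4% and 13.5%), with Klf9, Hr and Thra called each time. In null DIV4 (16.5% and 16.8%) Klf9 and Hr were called. Without the library control D7 at DIV4, Klf9 and Hr were called in control DIV4 and Thra was not. A gene was called where limma's adjusted p was under 0.05. No member was called lower in these 4 comparisons. The median log2 change over the 4 tested members was 2.61, 2.59, 2.63 and 2.64 in control DIV2, control DIV4, null DIV2 and null DIV4, beside 0.02, 0.03, -0.02 and -0.01 over all tested genes. With 4 members these medians describe the list and are no test of it.

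**Figure D1:**
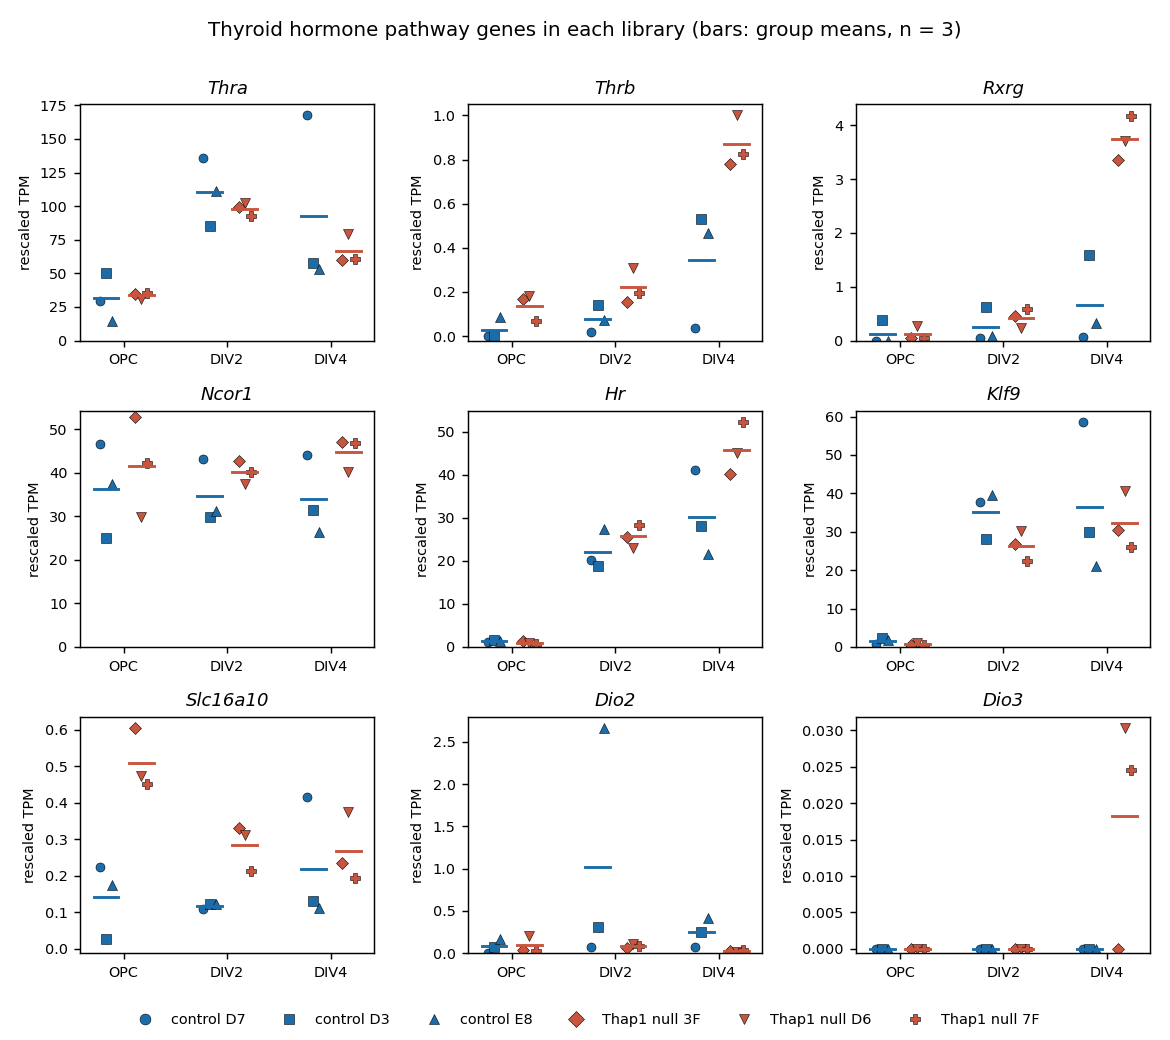
Rescaled TPM of the 9 genes in each of the 18 libraries, by stage, with 1 point per clone (blue for control, red for Thap1 null) and a bar at each group mean (n = 3), each panel on its own linear axis. Klf9 and Hr lie between 0.397 and 2.33 in all OPC libraries and between 18.8 and 58.6 in all DIV2 and DIV4 libraries, and Rxrg lies between 3.35 and 4.18 in the null clones at DIV4.

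Klf9 (chromosome 19, 23141226 to 23168134, plus strand; GRCm38, as are all positions) encodes a Krüppel-like transcription factor. As OPCs its rescaled TPM was 0.728, 2.33 and 1.7 in control D7, D3 and E8, and 0.397, 1.08 and 0.497 in null 3F, D6 and 7F. At DIV2 it was 37.7, 28.1 and 39.5 in the control clones and 26.7, 30.2 and 22.3 in the null clones. At DIV4 it was 58.6, 30.0 and 21.1 in the control clones and 30.4, 40.6 and 26.1 in the null clones. All 12 differentiated libraries lay above all 6 OPC libraries, and at DIV2 and DIV4 the genotypes overlapped. The means were 22.1 times the OPC mean in control DIV2 and 23 times in control DIV4, and 40.1 and 49.2 times in the null clones. On the log2(rescaled TPM + 1) scale, which understates the change of a gene so low in OPCs, Klf9 rose by 3.84 (SE 0.32, limma adjusted p = 4.25e-06) and 3.79 (adjusted p = 7.89e-06) in control, and by 4.06 (adjusted p = 3.35e-06) and 4.33 (adjusted p = 1.35e-06) in null cells. Null and control clones differed by -0.61 as OPCs (adjusted p = 0.228), by -0.39 at DIV2 (adjusted p = 0.637) and by -0.07 at DIV4 (adjusted p = 0.949), none of which passed. With all libraries of clone D7 left out the OPC difference was -0.88 and passed (limma adjusted p = 0.0306).

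Hr (chromosome 14, 70552212 to 70573548, plus strand) encodes hairless, a corepressor of nuclear receptors that is itself a target of thyroid hormone. As OPCs the values for D7, D3 and E8 were 1.06, 1.6 and 1.41 rescaled TPM, and those for 3F, D6 and 7F were 1.45, 0.911 and 0.684. At DIV2 the values were 20.3, 18.8 and 27.4 in control and 25.6, 23.0 and 28.4 in null clones. At DIV4 they were 41.2, 28.0 and 21.5 in control and 40.2, 45.0 and 52.3 in null clones. The genotypes overlapped at all 3 stages, at DIV4 through control D7 alone. Hr rose by 3.28 in control DIV2 (SE 0.22, limma adjusted p = 4.73e-07), by 3.68 in control DIV4 (adjusted p = 2.28e-07), by 3.74 in null DIV2 (adjusted p = 2.79e-07) and by 4.55 in null DIV4 (adjusted p = 1.81e-08). The mean in null DIV4 was 45.1 times that of null OPCs, and the ratio in control was 22.2.

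The rise of Hr to DIV4 did not pass the test of a difference between the genotypes on rescaled TPM. The interaction, the null change less the control change, was 0.87 (SE 0.30, limma adjusted p = 0.131), the null against control difference at DIV4 was 0.63 (SE 0.22, adjusted p = 0.111), and the step from DIV2 to DIV4 in null cells was 0.81 (adjusted p = 0.0647). All 3 values passed with the library control D7 at DIV4 left out, and with quantile normalization of all 18 libraries. Without that library the interaction was 1.11 (limma adjusted p = 0.046), the genotype difference at DIV4 was 0.87 (adjusted p = 0.0237) and the step from DIV2 to DIV4 in null cells was 0.81 (adjusted p = 0.0206). With quantile normalization they were 1.18 (limma adjusted p = 0.0243), 0.75 (adjusted p = 0.0243) and 0.99 (adjusted p = 0.0131). The step in null cells also passed on protein-coding TPM (1.10, limma adjusted p = 0.0451) and with only the groups compared (0.81, adjusted p = 0.0156). On deposited TPM the interaction was -0.14 (limma adjusted p = 0.739) and the genotype difference at DIV4 was 0.47 (adjusted p = 0.532). These lay 1.54 and 0.64 above the median gene on that scale. D7 was also the clone with the highest oligodendrocyte marker sum and the lowest astrocyte marker sum at DIV4, and the part of these in the Hr values was not tested.

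Thra (chromosome 11, 98740638 to 98769006, plus strand) encodes thyroid hormone receptor alpha and was the highest of the 3 receptor genes in every library. Control D7, D3 and E8 had 29.7, 50.5 and 14.2 rescaled TPM as OPCs, 136, 85.0 and 111 at DIV2 and 168, 57.8 and 53.3 at DIV4. Null 3F, D6 and 7F had 34.7, 30.7 and 35.7 as OPCs, 99.1, 102 and 92.7 at DIV2 and 60.2, 79.0 and 60.7 at DIV4. DIV2 lay above OPC in every clone, and the order in the null clones was OPC, DIV4 and DIV2 with no overlap between stages. In control cells DIV4 spanned the DIV2 values, since D7 was higher and D3 and E8 were lower than at DIV2. Thra rose by 1.93 in control DIV2 (SE 0.41, limma adjusted p = 0.00279), by 1.49 in control DIV4 (adjusted p = 0.0138) and by 1.52 in null DIV2 (adjusted p = 0.0135). The change in null DIV4 was 0.96 and missed the threshold (adjusted p = 0.0911). Without the library control D7 at DIV4 the control DIV4 change was 0.97 and missed it too (limma adjusted p = 0.0586), while the null DIV4 change of 0.96 passed (adjusted p = 0.0302), as it did without clone E8 (adjusted p = 0.0451) and without clone D7 (adjusted p = 0.039). The null DIV4 change also passed on deposited TPM (1.43, limma adjusted p = 0.0391), on protein-coding TPM (1.39, adjusted p = 0.0208) and with quantile normalization (1.19, adjusted p = 0.0281). With only the groups compared it passed (0.96, limma adjusted p = 0.003), and the control DIV4 change did not (1.49, adjusted p = 0.215). The null DIV2 call was lost when any 1 null clone was left out (adjusted p = 0.104, 0.114 and 0.0895). No genotype difference in Thra passed, with values of 0.26, -0.15 and -0.28 at OPC, DIV2 and DIV4 (limma adjusted p = 0.72, 0.926 and 0.768).

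Thra makes a shorter protein that binds T3 (alpha 1, 410 codons here) and a longer one that does not (alpha 2, 492 codons). The transcript of the longer form, ENSMUST00000064187, had means of 19.5, 72.1 and 62.4 rescaled TPM in control OPC, DIV2 and DIV4 and 19.1, 59.6 and 39.6 in the null groups. The transcript of the shorter form, ENSMUST00000103139, had means of 2.99, 7.28 and 7.2 in control and 4.25, 8.92 and 5.88 in null groups. The longer form made up most of the sum of both in every library. Its share in the control clones D7, D3 and E8 was 81.7%, 89.2% and 87.7% as OPCs, 90.1%, 90.8% and 91.7% at DIV2 and 90.7%, 85.6% and 90.8% at DIV4. In the null clones 3F, D6 and 7F it was 82.7%, 82.0% and 81.0%, then 89.4%, 85.9% and 85.5%, then 87.3%, 88.2% and 85.3%. The null mean was lower by 4.31, 3.92 and 2.10 percentage points at the 3 stages (two-sided exact permutation p = 0.3, 0.1 and 0.3). From OPC to DIV4 the share differed by 2.82 points in control (exact permutation p = 0.5) and by 5.03 points in null cells (exact permutation p = 0.1). With 3 clones against 3 the smallest possible p is 0.1, so none of these could pass 0.05. The OPC and DIV4 libraries come from the same clones, a pairing that the 2 tests from OPC to DIV4 left out. The 3′ end of the longer transcript overlaps Nr1d1 on the opposite strand, and 5.17% of the 31-base words of Thra occur in Nr1d1 read the other way. The library kit is stranded, but whether strand was used in the quantification is not given in the sources used here. Nr1d1, a nuclear receptor of the circadian clock, had group means of 1.04 to 2.15 rescaled TPM, far below those of Thra, and rose by 0.57 in control DIV4 (limma adjusted p = 0.0394) and 0.65 in null DIV4 (adjusted p = 0.0214). The control value without the library D7 at DIV4 was 0.56 and did not pass (limma adjusted p = 0.0799).

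**Figure D2:**
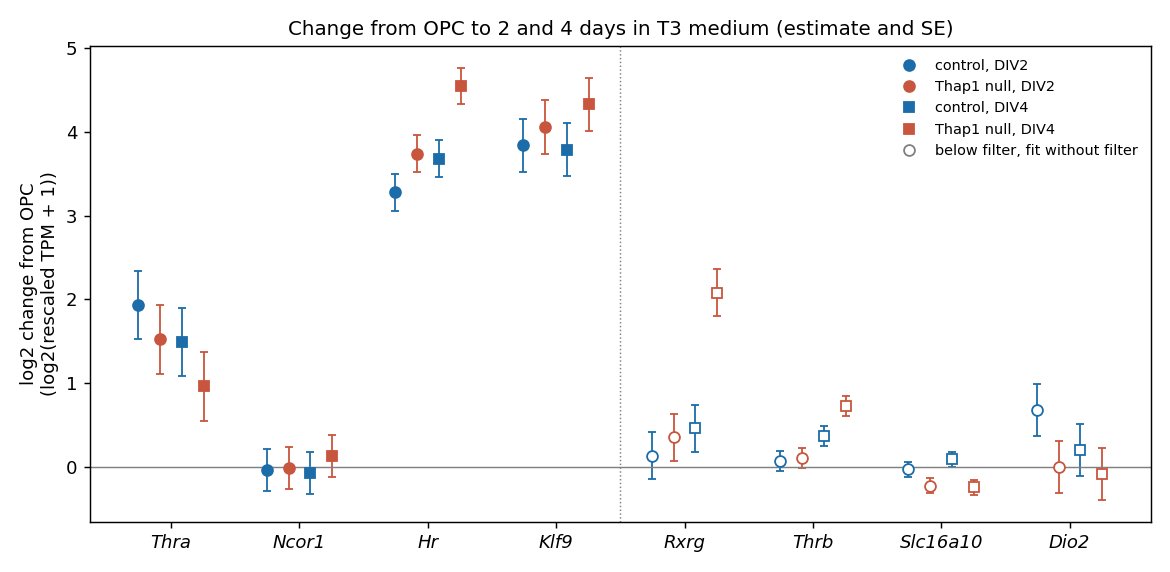
Log2 change against OPC at DIV2 and DIV4 for 8 of the 9 genes (all but Dio3) on the log2(rescaled TPM + 1) scale, with bars of 1 SE, in control (blue) and Thap1 null cells (red), circles for DIV2 and squares for DIV4. Filled points are the 4 tested genes and open points are 4 below the filter, from the fit without a filter. Hr and Klf9 lie between 3.28 and 4.55, Thra between 0.96 and 1.93 and Ncor1 within 0.13 of 0.

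Thrb (chromosome 14, 17660261 to 18038090, plus strand), which encodes thyroid hormone receptor beta, was low throughout and did not reach the filter. It stood at 0, 0 and 0.0876 rescaled TPM in control D7, D3 and E8 as OPCs, at 0.0197, 0.142 and 0.0723 at DIV2 and at 0.0371, 0.531 and 0.466 at DIV4. Null 3F, D6 and 7F had 0.167, 0.18 and 0.0674 as OPCs, 0.156, 0.309 and 0.197 at DIV2 and 0.78, 1.0 and 0.827 at DIV4. At DIV4 every null clone lay above every control clone, and Thra was far higher than Thrb in each library. In a fit over all 30396 genes with a value above 0, added after the values were seen, Thrb rose in null DIV4 against OPC by 0.72 (SE 0.12, limma adjusted p = 0.00113) and against DIV2 by 0.62 (adjusted p = 0.0317). In that fit 6.86% of genes were called higher in null DIV4 against OPC and 0.467% against DIV2. The control change from OPC to DIV4 was 0.37 (adjusted p = 0.0568), and the genotype difference at DIV4 was 0.50 (adjusted p = 0.0502). The last passed narrowly with clone as a block (0.50, limma adjusted p = 0.0466) and without the library control D7 at DIV4 (0.32, adjusted p = 0.0466). The rise of Thrb from DIV2 to DIV4 in null cells was lost without any 1 null clone (adjusted p = 0.197, 0.224 and 0.288) and without control E8 (adjusted p = 0.0625). It was also lost on deposited TPM (0.77, limma adjusted p = 0.186) and with a pseudocount of 0.1 (1.62, adjusted p = 0.211).

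Rxrg (chromosome 1, 167598384 to 167639623, plus strand) encodes retinoid X receptor gamma, a partner of thyroid hormone receptors that is known in cells of the oligodendrocyte lineage. In control D7, D3 and E8 it had 0, 0.385 and 0 rescaled TPM as OPCs, 0.0492, 0.615 and 0.0752 at DIV2 and 0.0595, 1.59 and 0.328 at DIV4. In null 3F, D6 and 7F it had 0.0525, 0.267 and 0.0437 as OPCs, 0.461, 0.236 and 0.584 at DIV2 and 3.35, 3.71 and 4.18 at DIV4. The 3 null clones at DIV4 lay above all other 15 libraries, of which control D3 at DIV4 was the highest. The mean at DIV4 was 3.75 ± 0.42 in null and 0.658 ± 0.815 in control clones (SD, n = 3 each), a ratio of 5.69. Rxrg was below the filter, with a mean under 1 over the 18 libraries. In the fit without a filter it rose in null DIV4 by 2.08 against OPC (SE 0.28, limma adjusted p = 0.000301) and by 1.74 against DIV2 (adjusted p = 0.015), and it was higher in null than in control cells at DIV4 by 1.62 (adjusted p = 0.00895). In that fit 1.18% of genes were called higher in null cells at DIV4. The control change from OPC to DIV4 was 0.46 and did not pass (adjusted p = 0.324). The interaction was 1.62 (SE 0.39, adjusted p = 0.0713), and passed with clone as a block (limma adjusted p = 0.0218).

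The Rxrg difference at DIV4 kept its sign whichever clone was left out, but not its call. Without the library control D7 at DIV4 it was 1.35 (limma adjusted p = 0.0216). Without control E8 it was 1.52 (adjusted p = 0.0598), without null 3F 1.68 (adjusted p = 0.063) and without null 7F 1.56 (adjusted p = 0.1). The step from DIV2 to DIV4 in null cells lost its call without any 1 null clone (adjusted p = 0.103, 0.176 and 0.163). With a pseudocount of 0.1 both calls were lost (2.98 at DIV4 between genotypes, limma adjusted p = 0.115, and 2.92 for the step, adjusted p = 0.168). On deposited TPM the step was lost in the fit without a filter (1.98, limma adjusted p = 0.0632). On that scale Rxrg reached the filter through null DIV4 itself, with 4.41, 5.45 and 5.82 deposited TPM in 3F, D6 and 7F. The step in the fit with the filter (1.98, limma adjusted p = 0.0399) therefore has no weight as a test. Of the 4 annotated Rxrg transcripts, the 3 with upstream starts carried nearly all of the null DIV4 level, with means of 2.65 ± 0.557, 0.374 ± 0.0206 and 0.557 ± 0.191. ENSMUST00000111380, whose annotated start at 167618309 lies by the downstream promoter with the AGGTCA motif printed above, had 0.161 ± 0.0421 in null and 0.162 ± 0.234 in control DIV4 (SD, n = 3 each).

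Ncor1 (chromosome 11, 62316426 to 62458541, minus strand) encodes the corepressor that unliganded thyroid hormone receptors recruit. Its rescaled TPM in control D7, D3 and E8 was 46.5, 25.0 and 37.4 as OPCs, 43.1, 29.8 and 31.2 at DIV2 and 44.0, 31.4 and 26.3 at DIV4. In null 3F, D6 and 7F it was 52.8, 29.9 and 42.1, then 42.6, 37.4 and 40.1, then 47.0, 40.1 and 46.8. The stages overlapped in both genotypes, and the stage means differed by less than the SD of the OPC groups (10.8 in control and 11.5 in null cells, n = 3 each). The changes against OPC were -0.04 and -0.08 in control DIV2 and DIV4 (SE 0.25, limma adjusted p = 0.927 and 0.823) and -0.02 and 0.13 in null cells (adjusted p = 0.971 and 0.719). The genotype differences of 0.20, 0.22 and 0.41 at OPC, DIV2 and DIV4 did not pass (limma adjusted p = 0.635, 0.773 and 0.376). These values rest on the rescaling, and the deposited TPM of Ncor1 gives another picture, described further on.

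The 3 members that act on the hormone itself were all below the filter, with means over the 18 libraries of 0.258 for Dio2, 0.00305 for Dio3 and 0.257 rescaled TPM for Slc16a10. Dio2 (chromosome 12, 90724552 to 90738438, minus strand) had 0, 0.0749 and 0.169 rescaled TPM in control D7, D3 and E8 as OPCs, 0.0786, 0.315 and 2.66 at DIV2 and 0.0746, 0.252 and 0.414 at DIV4. Null 3F, D6 and 7F had 0.0388, 0.207 and 0.0323, then 0.0586, 0.111 and 0.0896, then 0.0248, 0.0115 and 0.0374. The single value above 1 was control E8 at DIV2, and the control DIV2 against OPC change of 0.68 in the fit without a filter did not pass (SE 0.31, limma adjusted p = 0.193). Dio3 (chromosome 12, 110279068 to 110281097, plus strand), itself a known target of thyroid hormone in other brain cells, was listed at 0 in 16 of 18 libraries. The other 2 were null D6 and 7F at DIV4, with 0.0303 and 0.0245.

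Slc16a10 (chromosome 10, 40033532 to 40142258, minus strand) encodes MCT10, a transporter of thyroid hormone and aromatic amino acids. Control D7, D3 and E8 had 0.225, 0.0268 and 0.175 rescaled TPM as OPCs, 0.109, 0.123 and 0.122 at DIV2 and 0.416, 0.131 and 0.113 at DIV4. Null 3F, D6 and 7F had 0.606, 0.474 and 0.452 as OPCs, 0.331, 0.311 and 0.214 at DIV2 and 0.236, 0.376 and 0.193 at DIV4. The null clones lay above the control clones as OPCs and at DIV2 and overlapped them at DIV4. In the fit without a filter Slc16a10 was higher in null than in control OPCs by 0.41 (SE 0.09, limma adjusted p = 0.0224), where 2.9% of genes were called higher. That call was lost under quantile normalization (0.29, limma adjusted p = 0.157), with a pseudocount of 0.1 (1.43, adjusted p = 0.0549) and with any 1 clone other than D7 left out, where the difference was 0.33 to 0.43.

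Between the genotypes no tested member was called by limma at any stage. Null against control, 6.02% of all tested genes were called higher and 5.94% lower as OPCs, 1.65% and 1.15% at DIV2, and 2.69% and 2.12% at DIV4. The number of members with an unadjusted p under 0.05 was 0, 0 and 1 at the 3 stages, the 1 being Hr at DIV4. The interactions called 0 members as well, with 0.265% and 0.2% of all genes higher and lower for DIV2 against OPC, 1.46% and 1.33% for DIV4 against OPC, and 0.016% and 0.00802% for DIV4 against DIV2. Their counts at an unadjusted p under 0.05 were 0, 1 (Hr) and 0. From DIV2 to DIV4 the fit called 0 members in control cells (0.104% of genes higher, 0.128% lower, 0 members at an unadjusted p under 0.05) and 0 in null cells (1.06% and 1.04%, with Hr at an unadjusted p under 0.05). The error is large for Thra, where the interactions were -0.41 at DIV2 and -0.54 at DIV4 (SE 0.59 each, limma adjusted p = 0.815 and 0.647). For Klf9 they were 0.22 and 0.55 (adjusted p = 0.885 and 0.538). These values do not show that the genotypes responded alike.

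The scaling decides how the control OPC group is read. On deposited TPM the median gene shifted by 1.96 in control DIV2 and 2.01 in control DIV4 against OPC on the log2 scale, by 0.32 and 0.37 in null cells, and by 1.50 between null and control OPCs. The calls over all genes followed that shift, with 10713 higher and 72 lower in control DIV2 against OPC on deposited TPM beside 2208 and 2159 on rescaled TPM. Protein-coding TPM brought to a sum of 1000000 gave 5704 and 688 for the same comparison. For control DIV4 the 3 scalings gave 11335 and 29 (deposited), 2008 and 2014 (rescaled), and 6156 and 362 (protein-coding). Between null and control OPCs they gave 10407 and 39, 751 and 741, and 2610 and 186, with 597 and 1018 under quantile normalization. In null DIV2 against OPC they gave 1845 and 452, 1794 and 1687, and 2432 and 1082, and in null DIV4 2342 and 570, 2053 and 2096, and 4032 and 972. The splits for the interactions turned with them: 35 and 9331, 33 and 25, and 13 and 148 for DIV2, and 38 and 9443, 182 and 166, and 25 and 241 for DIV4, with 391 and 177 for the last under quantile normalization. Null against control gave 87 and 116 at DIV2 and 115 and 243 at DIV4 on deposited TPM, beside 206 and 143 and 335 and 265 on rescaled TPM. For DIV4 against DIV2 in null cells the splits were 27 and 40, 132 and 130, and 201 and 32, and in control cells 20 and 26, 13 and 16, and 18 and 4, with 26 and 51 for the last under quantile normalization.

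Klf9, Hr and Thra stood above the median gene under either scaling. On deposited TPM Klf9 was higher by 5.30 and 5.28 in control DIV2 and DIV4, which is 3.34 and 3.26 above the median gene. Hr was higher by 4.70 and 5.13, or 2.74 and 3.12 above it, and Thra by 4.44 and 4.03, or 2.48 and 2.02 above it. Ncor1 was called higher on deposited TPM, by 2.56 and 2.54, of which 0.60 and 0.53 were left above the median gene, and it was also called higher in null than in control OPCs (2.20, limma adjusted p = 0.000118). On rescaled TPM none of these Ncor1 differences passed. The sign of the Hr difference between null and control OPCs turned as well, from -0.24 on rescaled TPM (limma adjusted p = 0.496) to 0.61 on deposited TPM (adjusted p = 0.0474).

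**Figure D3:**
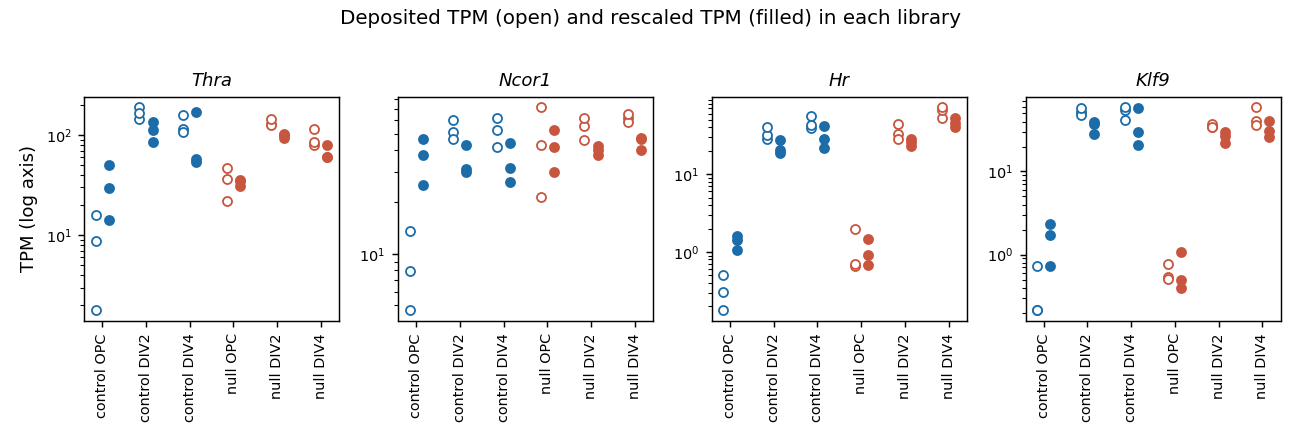
Deposited TPM (open points) and rescaled TPM (filled points) of Thra, Ncor1, Hr and Klf9 in each library, on a log axis, by group. In control OPCs the deposited values lie below the rescaled ones in all 3 clones, since their factors are 0.1249 to 0.3158, and at DIV2 and DIV4 the factors are 0.952 to 2.004.

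Of 46 other genes of the hormone system in 6 lists, 25 could be tested. In control DIV4 against OPC 9 were called higher and 3 lower, where 16.1% of all tested genes were called higher and 16.1% lower. The 25 had a median log2 change of 0.20 beside 0.03 over all genes. Without the library control D7 at DIV4 the counts were 9 and 2, with no share over all genes given for that fit. In null DIV4 15 were called higher and 1 lower, beside 16.5% and 16.8% of all tested genes, and the median was 0.85 beside -0.01. The 15 include Aldh1a1, which reached the filter through null DIV4 itself, so its call there has no weight as a test. The 2 genotypes share no libraries in these comparisons. The spread of each gene and the scaling factors come from all 18 libraries, so the 2 sets of counts are not independent. At DIV2 the counts were 5 and 6 in control (17.7% and 17.3% over all genes) and 9 and 2 in null cells (14.4% and 13.5%). From DIV2 to DIV4 limma called 5 higher in null cells, Aldh1a1 again among them, where 1.06% of all tested genes were called higher. In control cells it called 0, beside 0.104% of all tested genes, and 8 had an unadjusted p under 0.05. Without the library control D7 at DIV4 it called 4 higher in control cells, Aldh1a1 included.

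**Figure D4:**
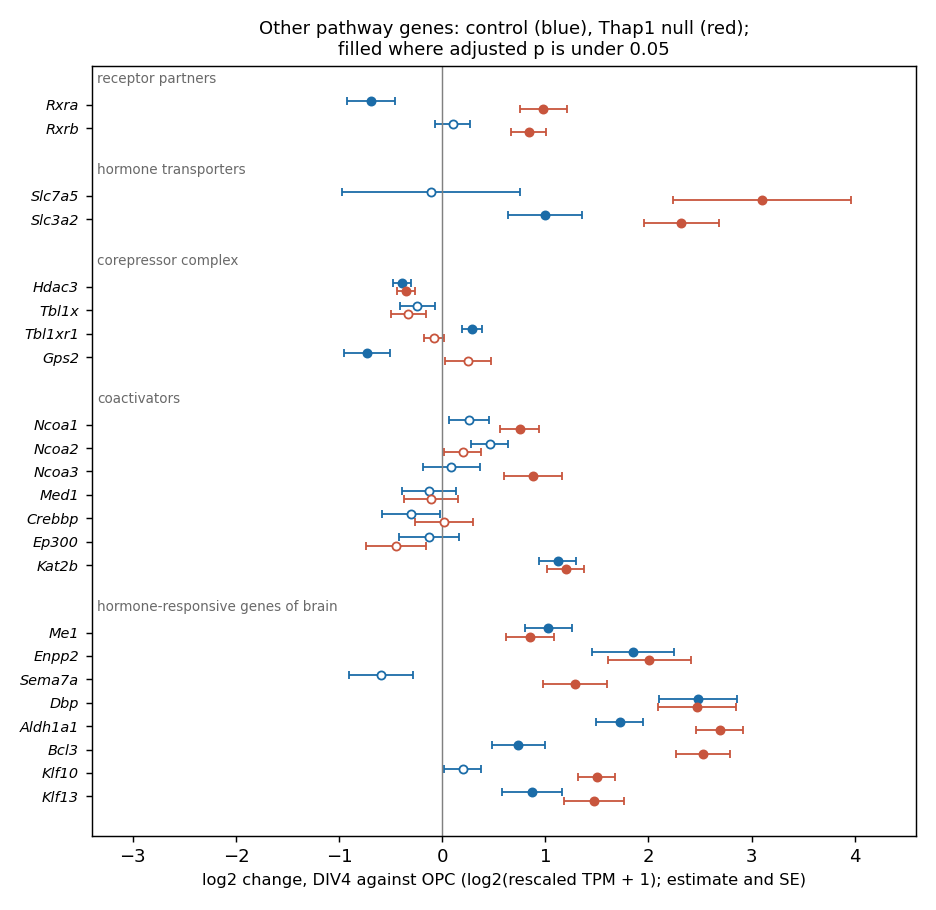
Log2 change from OPC to DIV4 of 23 of the 25 tested pathway genes other than the members, by list, with bars of 1 SE, in control (blue) and Thap1 null cells (red). Filled points have a limma adjusted p under 0.05. The control value of Rxra lies at -0.69 and the null value at 0.98, and the 8 hormone-responsive genes at the foot of the plot are all filled in null cells. Among these 8, Aldh1a1 reached the filter through null DIV4 itself.

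Of the other retinoid X receptor genes, Rxra passed the test of a different change to DIV4 between the genotypes (interaction 1.67, limma adjusted p = 0.02) and Rxrb did not (0.75, SE 0.24, adjusted p = 0.102). On deposited TPM the Rxra interaction was -0.04, where the median gene had -1.68. Rxra, the alpha form, had 6.85, 5.93 and 6.74 rescaled TPM in control D7, D3 and E8 as OPCs and 2.68, 4.92 and 3.61 at DIV4. In the null clones it had 2.28 to 2.76 as OPCs and 5.18 to 6.77 at DIV4. It fell by 0.69 in control DIV4 (SE 0.23, limma adjusted p = 0.0325) and rose by 0.98 in null DIV4 (adjusted p = 0.00438). It was lower in null OPCs by a log2 difference of -1.10 (adjusted p = 0.00709). Deposited TPM gave 0.48 there (limma adjusted p = 0.263), beside 1.50 for the median gene. The control change to DIV4 on deposited TPM was 1.44, beside 2.01 for the median gene, so the control fall is relative to the median gene. Without the library control D7 at DIV4 the control change on rescaled TPM was -0.52 and no longer passed (limma adjusted p = 0.125). Rxrb, the beta form, changed by 0.10 in control (adjusted p = 0.695) and rose by 0.84 in null DIV4 (adjusted p = 0.00152).

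Among the hormone transporters, 3 of 6 could be tested. Slc3a2 and Slc7a5, which encode the heavy chain and the transport subunit of the amino acid and hormone carrier LAT1, rose in null DIV4 by 2.32 (limma adjusted p = 0.000244) and 3.10 (adjusted p = 0.0123) against OPC, and by 2.40 (adjusted p = 0.00459) and 4.37 (adjusted p = 0.0193) against DIV2. In control DIV4 Slc3a2 rose by 1.0 (SE 0.36, limma adjusted p = 0.0448), while Slc7a5 changed by -0.11 (SE 0.86, adjusted p = 0.942). Among the controls D7, D3 and E8 parted here, with 0.778, 62.4 and 21.3 rescaled TPM of Slc7a5 and 17.2, 76.7 and 42.8 of Slc3a2 at DIV4, against 57.6 to 71.5 and 58.7 to 87.8 in the null clones. With the library control D7 at DIV4 left out, both genes were called higher in control DIV4 against OPC, by 1.55 for Slc3a2 (limma adjusted p = 0.000527) and 1.36 for Slc7a5 (adjusted p = 0.035). Slco1c1, a carrier of the prohormone, and Crym, which binds T3 in the cytosol, were below the filter with means of 0.0227 and 0.0172 over the 18 libraries, and none of the 5 genes of hormone metabolism and binding could be tested.

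**Figure D5:**
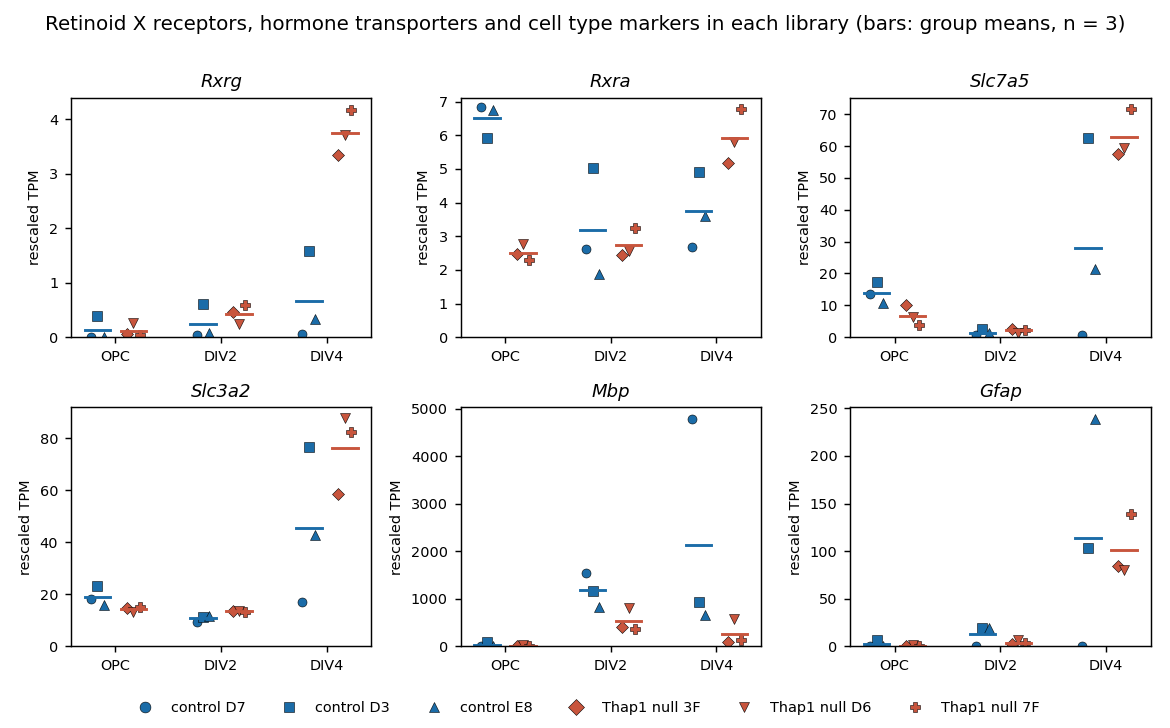
Rescaled TPM of Rxrg, Rxra, Slc7a5, Slc3a2, Mbp and Gfap in each library, by stage, with 1 marker shape per clone and a bar at each group mean (n = 3). Control D7 (blue circle) at DIV4 has the highest Mbp, 4790, and the lowest Slc7a5, 0.778, and Gfap, 0.176, of the DIV4 libraries, and its Rxrg is 0.0595.

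Rxrg, Slc7a5 and Slc3a2 were lowest in the same control clone at DIV4. Mbp, the myelin basic protein gene, at DIV4 stood at 4790 rescaled TPM in D7, 929 in D3 and 668 in E8, and Gfap, an intermediate filament gene of astrocytes, at 0.176, 103 and 239. The null clones at DIV4 had Mbp of 91.9 to 576 and Gfap of 80.4 to 139. In bulk libraries fewer cells of a type and less RNA per cell cannot be told apart, and the part of cell composition in the Rxrg and transporter values was not tested.

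Of the 5 other genes of the corepressor complex, all tested, 1 was called higher and 2 lower in control DIV4, and 1 lower in null DIV4. Over all tested genes 16.1% were called higher and 16.1% lower in control DIV4, and 16.5% and 16.8% in null DIV4. No test was made of counts this small against those shares. Hdac3, the histone deacetylase of the complex, fell by 0.39 in control (SE 0.09, limma adjusted p = 0.00476) and by 0.35 in null cells (adjusted p = 0.00771). Gps2, a further subunit, fell by 0.73 in control (SE 0.22, adjusted p = 0.0221) and changed by 0.25 in null cells, where it did not pass. On deposited TPM the control changes of Hdac3 and Gps2 were 2.22 and 1.62, so these falls are relative to the median gene. Tbl1xr1, a scaffold subunit, rose by 0.29 in control (adjusted p = 0.0415).

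Of the 8 coactivators 7 were tested, and 1 was called higher in control DIV4 and 3 in null DIV4. The shares of all tested genes called higher were 16.1% and 16.5%. Kat2b, a histone acetyltransferase, rose by 1.12 in control (SE 0.18, limma adjusted p = 0.000457) and by 1.20 in null cells (adjusted p = 0.000183). Ncoa1 and Ncoa3, steroid receptor coactivators, rose in null DIV4 by 0.75 (adjusted p = 0.00678) and 0.88 (adjusted p = 0.0261), with control values of 0.26 and 0.09 that did not pass.

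Of 20 further genes known to respond to thyroid hormone in brain, 8 could be tested, and 6 were called higher in control DIV4 and all 8 in null DIV4, with none lower. Over all tested genes 16.1% were called higher and 16.1% lower in control DIV4, and 16.5% and 16.8% in null DIV4. The 8 include Aldh1a1, whose call in null DIV4 carries no weight, as described below. Dbp, a circadian transcription factor gene, rose by 2.48 in control (SE 0.38, limma adjusted p = 0.00041) and by 2.47 in null cells. Enpp2, which encodes autotaxin and is made by oligodendrocytes, rose by 1.85 (SE 0.40, adjusted p = 0.00362) and 2.01. Aldh1a1, an enzyme that makes retinoic acid, rose by 1.72 (SE 0.23, adjusted p = 0.000152) and 2.69. Its null DIV4 mean of 5.83 rescaled TPM, beside 2.31 in control DIV4 and at most 0.711 in the other groups, carried it over the filter, so its values in null DIV4, a difference from control of 1.01 included, are a description with no weight as a test. Sema7a, a semaphorin gene, changed by -0.59 in control (adjusted p = 0.158) and rose by 1.29 in null cells (adjusted p = 0.00531), and Klf10, a relative of Klf9, changed by 0.20 (adjusted p = 0.418) and rose by 1.50. At DIV4 Sema7a was higher in null cells by 1.28 (limma adjusted p = 0.031) and Klf10 by 0.73 (adjusted p = 0.0312). Without the library control D7 at DIV4 the count for control DIV4 was 5 higher and 0 lower, with no share over all genes given for that fit. Of the differences at DIV4 without it, those of Sema7a (1.07, limma adjusted p = 0.0851) and Klf10 (0.74, adjusted p = 0.054) did not pass. On deposited TPM neither passed (1.23 and 0.62, limma adjusted p = 0.16 and 0.358), and Aldh1a1 stood at 0.93 (adjusted p = 0.196).

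The 6 myelin genes that respond to thyroid hormone were all called higher in control DIV4, and 4 of them in null DIV4. Over all tested genes 16.1% and 16.5% were called higher. Mag, Mobp and Mbp, which encode myelin proteins, rose in control DIV4 by 6.51 (SE 0.51, limma adjusted p = 3.89e-06), 6.51 (SE 0.78, adjusted p = 7.85e-05) and 6.50 (SE 1.01, adjusted p = 0.000403). Mbp rose by 4.00 in null cells (adjusted p = 0.00698). Mobp was lower in null than in control cells at DIV4 by a log2 difference of -5.51 (SE 0.78, limma adjusted p = 0.000952), and the difference in Mbp was -2.93 (adjusted p = 0.111). Without the library control D7 at DIV4 the control changes were 5.74, 5.44 and 5.63 and all 3 passed, and the Mobp difference was -4.45 (adjusted p = 0.00143). Cnp, a myelin enzyme gene, lost its control call there (1.58, limma adjusted p = 0.0758).

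Across the 18 libraries the profile of Hr ran closest to those of Kcna1 (Pearson r = 0.985), Klf9 (r = 0.971) and Fam53b (r = 0.968), among genes with a mean of at least 5 rescaled TPM. Klf9 ran closest to Col20a1 (r = 0.988), Ccdc13 (r = 0.985) and Chd3 (r = 0.983). For Thra the closest were Cnp (r = 0.989), Ugt8a (r = 0.981) and Shroom2 (r = 0.973), of which Cnp encodes a myelin enzyme and Ugt8a makes myelin galactolipid. Ncor1 had looser companions, Map3k3 (r = 0.913), Morc2a (r = 0.882) and Nfrkb (r = 0.871). Between members r was 0.839 for Thra and Klf9 and 0.776 for Thra and Hr, beside 0.971 for Klf9 and Hr, and Ncor1 had 0.033 with Thra, -0.047 with Klf9 and 0.078 with Hr. These correlations describe 18 libraries that share clones, stages and scaling factors, and no test was made of them.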

How the data were processed

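RNA of 18 libraries was measured by sequencing of total RNA with a stranded kit that removes ribosomal RNA, per the labels' protocols. The authors deposited TPM for 93666 Ensembl transcripts, each column summing to 1000000. The submitters' processing notes name STAR, Picard and mm10 without saying what each was used for, and the quantifier is not given in the sources used here. TPM was summed by gene symbol (38046 symbols, of which 25 turned into dates were restored through transcript identifiers), and 96.6% of transcripts were found in GENCODE M21 on GRCm38. Gene sums were divided by median-of-ratios factors from 11432 genes above 0 in all libraries, genes with a mean of at least 1 were kept, and log2(rescaled TPM + 1) was fitted with limma 3.58.1 in R 4.3.3 (1 mean per group over all 18 libraries, eBayes with trend). Within a comparison the p-values were corrected after Benjamini and Hochberg, with calls at an adjusted p under 0.05. The fit was tested on simulated data. Isoform shares were compared by exact permutation tests, and Python 3.11.15, numpy 2.4.6, pandas 2.3.3, scipy 1.17.1 and matplotlib 3.10.9 were used for the rest.

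Depth is unknown, so no counting error or detection floor is given, and precision rests on 3 clones per group. A clone's 3 libraries are paired across stages by the labels. Deviations from the group means correlated at 0.119 on average between libraries of 1 clone (-0.0089 to 0.423 over 18 pairs) and at -0.0595 between clones. The members, lists and tests were chosen with earlier results of these data known. Values are given for all 9 members, for up to 3 called genes per list with the largest change in control DIV4 against OPC and in null against control at DIV4, for 9 further pathway genes whatever their values (2 of them are not reported here), and for the 3 genes most correlated with each tested member. Sema7a, Klf10 and the other pathway genes given for null cells, and Pdgfra, Cnp and Gfap where a library changed them, go beyond that rule and were chosen after their values were seen. So were the neuron markers Tubb3 and Map2. Alternatives were deposited TPM, protein-coding TPM brought to a sum of 1000000, quantile normalization, no filter or a mean of at least 5, a pseudocount of 0.1, eBayes without trend, only the groups compared, protein-coding transcripts only, each clone left out and clone as a block. Leaving out the library control D7 at DIV4, a second count of Thra transcripts and the fits without filter of Rxrg, Thrb and Slc16a10 under other settings were added after the data were seen.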

Additional observations from a re-analysis of the deposited data

Results flagged for a closer look

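For 5 genes of the pathway lists the change from OPC to DIV4 differed between the genotypes by limma's interaction term over all 18 libraries (null change minus control change), and none of them is one of the 9 members. Rxra, the retinoid X receptor alpha gene, had an interaction of 1.67 (SE 0.32, limma adjusted p = 0.02). Bcl3, a cofactor of NF-kappa-B, had 1.79 (SE 0.37, adjusted p = 0.0259), Sema7a 1.88 (SE 0.44, adjusted p = 0.0381) and Klf10 1.30 (SE 0.25, adjusted p = 0.02). Mobp, the myelin-associated oligodendrocyte basic protein gene, had -5.49 (SE 1.10, adjusted p = 0.0227), and -4.42 without the library control D7 at DIV4 (adjusted p = 0.0196). The Mobp interaction did not pass on protein-coding transcripts with the same factors (-2.86, limma adjusted p = 0.0586) or with only the groups compared (-5.49, adjusted p = 0.0923). On protein-coding TPM the calls of Rxra, Sema7a, Bcl3 and Klf10 were lost (limma adjusted p = 0.0712, 0.0776, 0.082 and 0.0669), and with only the groups compared those of Bcl3 and Klf10 (adjusted p = 0.0641 and 0.0732). That of Sema7a was also lost with no filter and with a pseudocount of 0.1 (limma adjusted p = 0.0646 and 0.0572). On deposited TPM the interactions of Rxra, Sema7a, Bcl3 and Klf10 were -0.04, 0.73, 0.60 and -0.08 and did not pass, while that of Mobp was -5.99 and did. The median gene had an interaction of -1.68 on that scale, so the first 4 lay above it and Mobp below it. With null clone 7F left out none of the 5 passed (limma adjusted p = 0.199 to 0.263), nor without 3F (0.0934 for Klf10 to 0.154 for Sema7a). Without D6 the calls of Bcl3, Klf10 and Rxra were lost (adjusted p = 0.107, 0.064 and 0.0877), and without control E8 those of Klf10, Mobp, Rxra and Sema7a (adjusted p = 0.0849, 0.0722, 0.0582 and 0.0952). Sema7a did not pass without clone D7 (1.75, limma adjusted p = 0.0708) or without its DIV4 library (1.67, adjusted p = 0.064).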

How the results depend on the processing

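Over the 4 tested members, 780 of 816 alternative values kept their side of the threshold, 6 lost a call, 24 gained one and 6 turned sign with a call in one of the fits. Of the 780, 38 turned sign with no call in either fit, 5 of them on deposited TPM, where the interactions of Hr went from 0.45 to -0.57 at DIV2 and from 0.87 to -0.14 at DIV4, that of Klf9 at DIV4 from 0.55 to -0.45 and its null against control OPC difference from -0.61 to 0.23, and Ncor1 in null DIV2 against OPC from -0.02 to 0.41. On deposited TPM the median gene had interactions of -1.66 at DIV2 and -1.68 at DIV4, and it stood 1.50 higher in null than in control OPCs. Of the changed values 11 came with deposited TPM and 10 with 1 clone left out. Every turn of sign with a call was on deposited TPM: the DIV2 interaction of Klf9 (-0.80), the null against control OPC difference of Hr (0.61), and Ncor1 in control DIV2 and DIV4 against OPC (2.56 and 2.54) and in both interactions (-2.16 and -1.94). The calls of Klf9 and Hr against OPC passed under every alternative run, and that of Thra in control DIV4 was lost with only the groups compared (1.49, limma adjusted p = 0.215). Members called in null DIV4 against OPC numbered 2, and 4 on deposited TPM, 5 on protein-coding TPM, 4 with quantile normalization and 4 with no filter. From DIV2 to DIV4 in null cells 0 became 1, 2, 2 and 2 under the same settings, 2 with only the groups compared and 0 to 1 with a clone left out. On deposited TPM the 1 was Rxrg, which reached the filter on that scale through null DIV4 itself. Its calls on that scale have no weight as a test. They also enter the deposited counts for null DIV4 against OPC, null against control at DIV4 and the DIV4 interaction. For null against control OPCs 0 became 3 on deposited TPM, 1 on protein-coding TPM, 1 with no filter and 0 to 1 with a clone left out. At DIV4 0 became 1 (deposited), 1 (protein-coding), 2 (quantile), 1 (no filter), 0 to 1 (a clone left out) and 1 without the library control D7. For the interactions 0 became 3 at DIV2 and 3 at DIV4 on deposited TPM, and at DIV4 2 with quantile normalization and 0 to 1 with a clone left out. Where a scaling or the missing filter brought in further members, more members were tested by construction; otherwise the cause was not tested. Clone as a replicate block left the members called at 3, 3, 3 and 2 against OPC and at 0 elsewhere.

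The isoform share differences without 1 clone were -6.56 to -2.81, -5.17 to -3.17 and -3.81 to -1.22 points between genotypes at OPC, DIV2 and DIV4, and -0.26 to 6.03 and 4.45 to 5.42 from OPC to DIV4 in control and null cells. With all Thra transcripts in the denominator the DIV4 genotype difference was -7.82 and the null change 2.02. With a 3′-incomplete transcript counted as the longer form the DIV2 difference was -3.05 and the null change 3.96. For Rxrg, Thrb and Slc16a10 without a filter, 58 of 88 alternative values kept their side, 22 lost a call, 8 gained one and 0 turned sign. Over all genes, calls in control DIV2 and DIV4 against OPC fell from 4367 and 4022 to 2078 and 251 with only the groups compared, and to 2347 for DIV4 without clone D7. Without 1 null clone, calls in null DIV2 and DIV4 against OPC fell from 3481 and 4149 to 1434 to 1830 and 2155 to 2583. From DIV2 to DIV4 in null cells 262 calls became 1996 with only the groups compared, 506 with the block and 4 to 20 without 1 null clone, and in control cells 29 became 676 without the library D7 and 48 with the block. Null against control OPCs went from 1492 to 242 with only the groups compared and 336 without null 7F, and the DIV4 interaction from 348 to 72 and 16. Depth is unknown, and the low values of Thrb, Rxrg, Dio2, Dio3 and Slc16a10 carry an error that TPM does not show.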
